A study of Arabidopsis thaliana with 20 samples.

Results

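Many genes of Arabidopsis thaliana were known to the array's annotation by their locus number alone, and 52 of these were higher in nematode-induced giant cells than in control root cells with both of 2 amplification kits. They were selected on the measured values. Of 22746 probe sets other than array controls, 13513 were listed with 1 gene, and for 11932 of them the gene's symbol was only a locus number (1 further locus was set aside). A gene was taken when its mean log2(signal + 16) in giant cells exceeded that in control cells by at least 1.5 (2.83-fold) with each kit, and its mean giant cell level was at least 8 with each kit, a signal of about 240. The rule took 52 of the 11932 probe sets (0.436%), each from a different gene among the 11797 genes that they represent. The same rule took 16 of the 1580 probe sets whose gene had another symbol (1.01%), and its mirror image took 172 locus-only probe sets that were lower in giant cells. Because these differences chose the genes, they are given below as a description and were not tested.

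The cells came from roots of the Columbia ecotype. Meloidogyne incognita, a root-knot nematode, had been applied to the seedlings at 3 weeks of age as 1000 juveniles, and cells were cut out by laser 21 days after inoculation. Giant cell samples held about 80 cells and control samples about 150 cells, the controls being root cells from stretches of the same infested roots that held no nematode. The 4 groups were control and giant cells amplified with One-Direct, a WT-Ovation kit of NuGEN for which captured cells were lysed and amplified directly, and control and giant cells amplified with Pico, the maker's other WT-Ovation kit, which followed a separate RNA isolation. Every group held 3 biological samples, 1 of which was split over 3 technical arrays that were averaged here, so n = 3 per group and 20 arrays in all. The kit and the RNA isolation cannot be told apart, nor can the cell type and the amount of tissue captured.

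Root-knot nematodes settle in the vascular cylinder and feed from a small group of root cells that their secretions turn into giant cells. These cells go through repeated nuclear division without cell division and grow into large, metabolically active cells with dense cytoplasm, many organelles and ingrown walls, and they supply the nematode until it has laid its eggs. In bulk samples such as these, more cells that express a gene and more RNA of it per cell cannot be told apart. Of 25 marker genes listed for root cell types and feeding cells, only 2 had a probe set listed with 1 gene, so the identity of the captured cells could not be checked with the annotation used here. The cortex marker AT1G62500 averaged 6.67 (control) and 7.84 (giant) among One-Direct samples and 5.89 and 4.64 among Pico samples, and the root hair gene EXPA7, an expansin that loosens walls, averaged 5.26, 5.40, 4.55 and 4.74 in the same order, all in log2(signal + 16). Neither is one of the 52 genes, and their part in the results was not tested.

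All 52 genes are protein coding in RefSeq, as were 91.7% of the locus-only probe sets found there and 99.4% of the 4123 that reached the giant cell level of the rule. RefSeq gives a family name to only 2 of them, so the others are called here by locus and no role is given. AT2G31110 is TRICHOME BIREFRINGENCE-LIKE 40, of a plant family of wall polysaccharide acetyltransferases, and AT3G21670 is NPF6.4, of the NRT1/PTR family of membrane transporters for nitrate, peptides and other small solutes.

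With One-Direct, the difference between giant and control cells ran from 1.52 to 4.03 among the 52 genes, with a median of 2.13 (4.38-fold). With Pico it ran from 1.51 to 3.52, with a median of 1.98 (3.96-fold). Over all 22746 probe sets the median difference was 0.43 (One-Direct) and 0.05 (Pico), with 70.4% and 52.6% of them above 0. Relative to that shift, the genes' medians were 1.70 and 1.94 log2 units. The difference was over 2 with both kits in 16 genes and over 3 with both in 1 gene, AT3G20180. It was larger with One-Direct in 31 genes and with Pico in 21, and the kits' values lay within 0.5 of each other in 34. All folds are on the log2(signal + 16) scale, which understates the change of dim genes. Only AT3G20180 had a mean control signal under 16, but single control samples of some other genes also read below 16. Folds come from means of logs, so 1 low control sample can raise a fold above the ratio of mean signals. With One-Direct, AT5G09300 had control signals of 1.5, 549 and 304. Its mean signals were 285 (control) and 834 (giant), and its fold was 5.63.

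**Figure D1:**
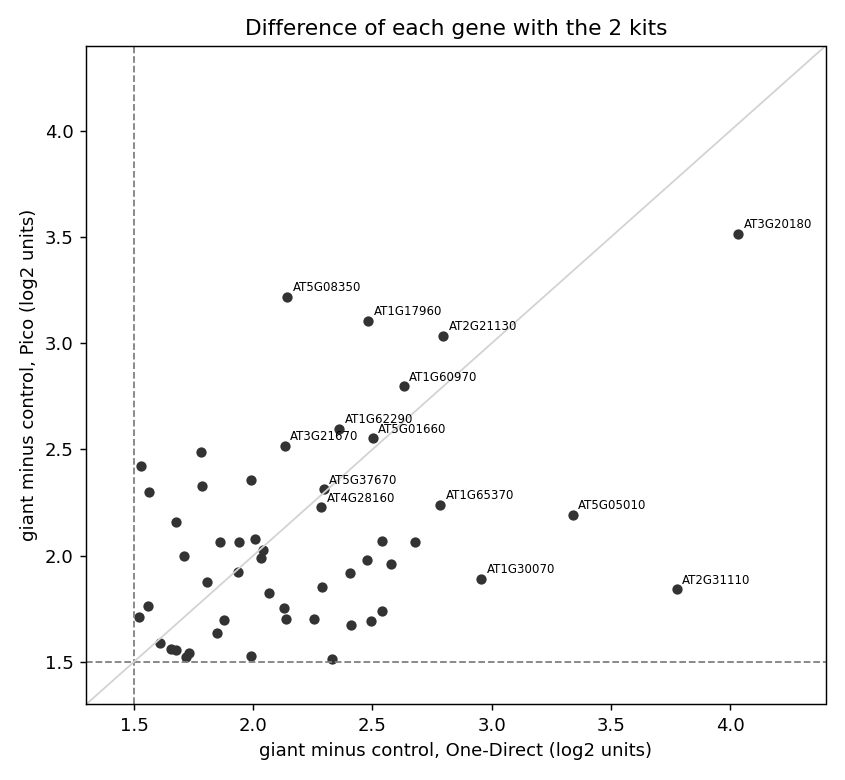
Giant minus control difference of each of the 52 genes in log2(signal + 16), with One-Direct on the horizontal and Pico on the vertical axis. Dashed lines mark the threshold of 1.5 on each axis and the grey line marks equal values. AT3G20180 has the largest value on both axes, 4.03 and 3.52. Like AT2G31110, AT5G05010 and AT1G30070, it lies to the right of the grey line.

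AT3G20180 had the largest difference with both kits at a pseudocount of 16, a rank it held with both in 13 of 21 other settings; with a pseudocount of 64 the largest were AT2G31110 (One-Direct) and AT5G08350 (Pico). Its control samples read 4.43, 5.25 and 4.25 with One-Direct and 4.45, 4.97 and 5.68 with Pico, and its giant cell samples read 8.32, 9.36 and 8.35 (One-Direct) and 8.26, 8.20 and 9.18 (Pico). The control values lay close to the floor that the added 16 sets, with a mean signal of 12.4 (One-Direct) and 19.1 (Pico) against 430 and 379 in giant cells. The lowest giant cell sample was above the highest control sample with both kits, by 3.07 and 2.52 log2 units. The group means differed by 4.03 with One-Direct and 3.52 with Pico, a fold of 16.4 and 11.4 on the log2(signal + 16) scale, which understates the ratio of the mean signals.

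AT2G21130 joined a large difference to a bright signal. Control samples read 7.73, 7.73 and 8.86 with One-Direct and 9.26, 8.71 and 9.34 with Pico, and giant cell samples 10.81, 11.38 and 10.51 (One-Direct) and 12.07, 12.36 and 11.98 (Pico). Each giant cell sample lay well above each control sample of its kit, and both cell types averaged lower with One-Direct. One-Direct means were 8.10 ± 0.65 (SD, n = 3) for control and 10.90 ± 0.44 for giant cells, and Pico means were 9.10 ± 0.34 and 12.14 ± 0.20, differences of 2.80 and 3.04.

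For AT1G60970 the control samples were 4.65, 6.34 and 6.29 with One-Direct and 5.93, 5.50 and 5.71 with Pico, against 8.54, 8.83 and 7.80 (One-Direct) and 8.86, 7.98 and 8.70 (Pico) in giant cells. The first One-Direct control sample was the lowest of all, and the groups did not overlap. AT5G01660 read 6.69, 6.83 and 5.52 (One-Direct) and 6.09, 7.04 and 6.17 (Pico) in control cells and 8.67, 8.90 and 8.97 (One-Direct) and 9.09, 9.16 and 8.71 (Pico) in giant cells. Its giant cell samples were the tighter ones, within 0.5 of each other with both kits, and its differences of 2.50 and 2.55 were nearly the same with either kit. AT1G17960 was more scattered, with control values of 6.76, 8.49 and 6.16 (One-Direct) and 4.86, 6.99 and 7.52 (Pico) and giant cell values of 9.24, 9.10 and 10.51 (One-Direct) and 10.21, 8.27 and 10.20 (Pico). One control sample of each kit reached within 1 log2 unit of the lowest giant cell sample, but none crossed it.

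AT1G62290 was dim, at 5.55, 6.51 and 5.66 with One-Direct and 6.38, 6.42 and 4.33 with Pico in control cells and 7.18, 8.56 and 9.07 (One-Direct) and 8.24, 8.50 and 8.18 (Pico) in giant cells. The 3 Pico giant cell samples lay close together while the One-Direct ones spread over almost 2 log2 units. AT5G37670 read 8.47, 7.60 and 8.97 (One-Direct) and 8.55, 8.10 and 8.58 (Pico) in control cells and 10.18, 11.70 and 10.04 (One-Direct) and 10.76, 10.82 and 10.58 (Pico) in giant cells. Its differences of 2.30 and 2.31 were the closest match between kits among the 12 genes with the largest differences. In AT1G65370 the One-Direct control samples ranged widely, 6.01, 9.08 and 9.94, whereas the Pico control samples did not, 9.38, 9.54 and 9.02; giant cell samples read 10.87, 11.01 and 11.51 (One-Direct) and 11.45, 11.72 and 11.49 (Pico). The first One-Direct control sample alone lay more than 3 log2 units below the others, so the difference of 2.79 with One-Direct rests partly on it, while the Pico difference was 2.24.

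AT4G28160 read 7.61, 7.73 and 5.66 with One-Direct and 5.05, 5.98 and 6.59 with Pico in control cells and 8.41, 8.99 and 10.45 (One-Direct) and 8.10, 7.95 and 8.24 (Pico) in giant cells. One-Direct samples averaged higher in both cell types, and no giant cell sample fell among the controls of its kit. AT5G05010 read 5.58, 8.05 and 7.28 (One-Direct) and 9.48, 9.31 and 9.06 (Pico) in control cells and 10.64, 10.22 and 10.07 (One-Direct) and 11.33, 11.21 and 11.88 (Pico) in giant cells. Here the Pico control samples were higher than every One-Direct control sample by about 1 log2 unit or more, so the difference was 3.34 with One-Direct and 2.19 with Pico. For NPF6.4 (AT3G21670) the control samples read 7.12, 5.36 and 7.54 with One-Direct and 4.74, 5.66 and 7.34 with Pico, and the giant cell samples 8.28, 9.39 and 8.76 (One-Direct) and 8.31, 8.55 and 8.43 (Pico). The Pico giant cell samples of this transporter gene lay within 0.3 of each other, the control samples spread over more than 2 log2 units with either kit, and the groups stayed apart.

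**Figure D2:**
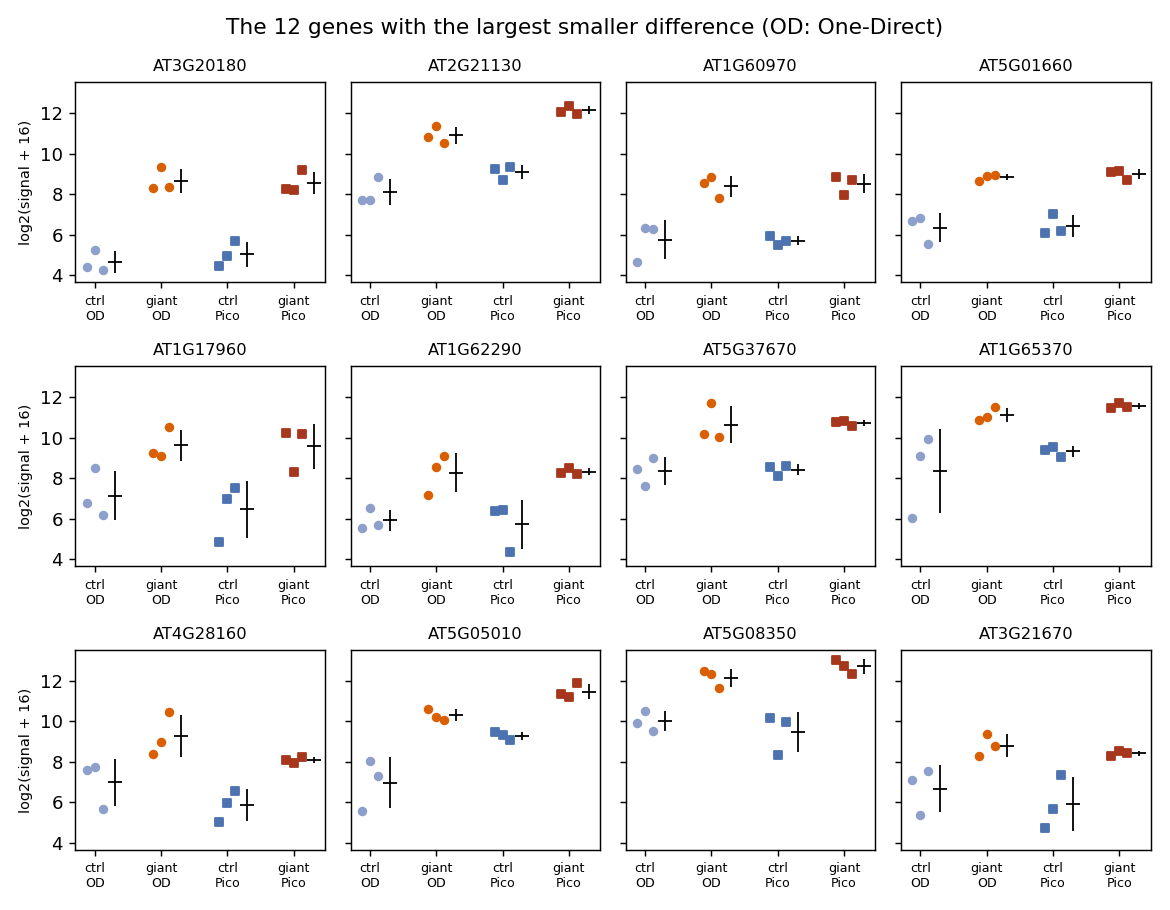
Log2(signal + 16) of each biological sample for the 12 genes with the largest value of the smaller of their 2 differences; circles are One-Direct and squares Pico samples, and the crosses beside them give mean ± SD (n = 3). In every panel the giant cell samples of a kit lie above its control samples, with the widest control spread in AT1G65370 (One-Direct).

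The 6 genes brightest in giant cells were AT5G08350, AT4G39280, AT4G24830, AT2G21130, AT1G65370 and AT5G48220; brightness orders probe sets and not RNA amounts. AT5G08350 read 9.94, 10.52 and 9.55 with One-Direct and 10.17, 8.35 and 9.96 with Pico in control cells, and 12.47, 12.32 and 11.65 (One-Direct) and 13.06, 12.76 and 12.33 (Pico) in giant cells. Its mean signal was 1068 in One-Direct controls, 4721 in One-Direct giant cells, 813 in Pico controls and 6912 in Pico giant cells. The second Pico control sample was well below the other 2, and the difference was 3.22 with Pico against 2.14 with One-Direct.

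AT4G39280 read 7.86, 9.81 and 9.89 (One-Direct) and 10.42, 10.35 and 10.05 (Pico) in control cells and 11.75, 11.89 and 11.13 (One-Direct) and 12.24, 12.15 and 12.18 (Pico) in giant cells. The 3 Pico giant cell samples were almost identical, with an SD of 0.04. AT4G24830 read 7.43, 9.74 and 8.31 (One-Direct) and 10.29, 9.89 and 10.31 (Pico) in control cells and 11.36, 11.37 and 10.78 (One-Direct) and 11.92, 12.48 and 12.27 (Pico) in giant cells. AT5G48220 read 8.08, 10.27 and 10.00 (One-Direct) and 8.72, 8.94 and 9.06 (Pico) in control cells and 11.46, 11.61 and 10.87 (One-Direct) and 10.86, 11.02 and 11.01 (Pico) in giant cells. In all 3 of these genes the first One-Direct control sample was the lowest control sample, and giant and control samples of a kit did not overlap. The differences with One-Direct and Pico were 2.41 and 1.92 for AT4G39280, 2.68 and 2.06 for AT4G24830, and 1.86 and 2.06 for AT5G48220.

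Giant cell levels reached at least 10 with both kits in 10 of the 52 genes and stayed under 9 with both in 12. The mean giant cell level over the 52 genes had a median of 9.38 with One-Direct (range 8.13 to 12.15) and 9.44 with Pico (8.10 to 12.71), where the median of all probe sets was 8.19 and 7.56. In control cells the median was 7.28 (4.64 to 10.00) with One-Direct, below the 7.69 of all probe sets. With Pico it was 7.65 (5.03 to 10.27), near the 7.64 of all probe sets. The lower bound of 8 on the giant cell level was part of the rule, and no bound was set on the control level.

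**Figure D3:**
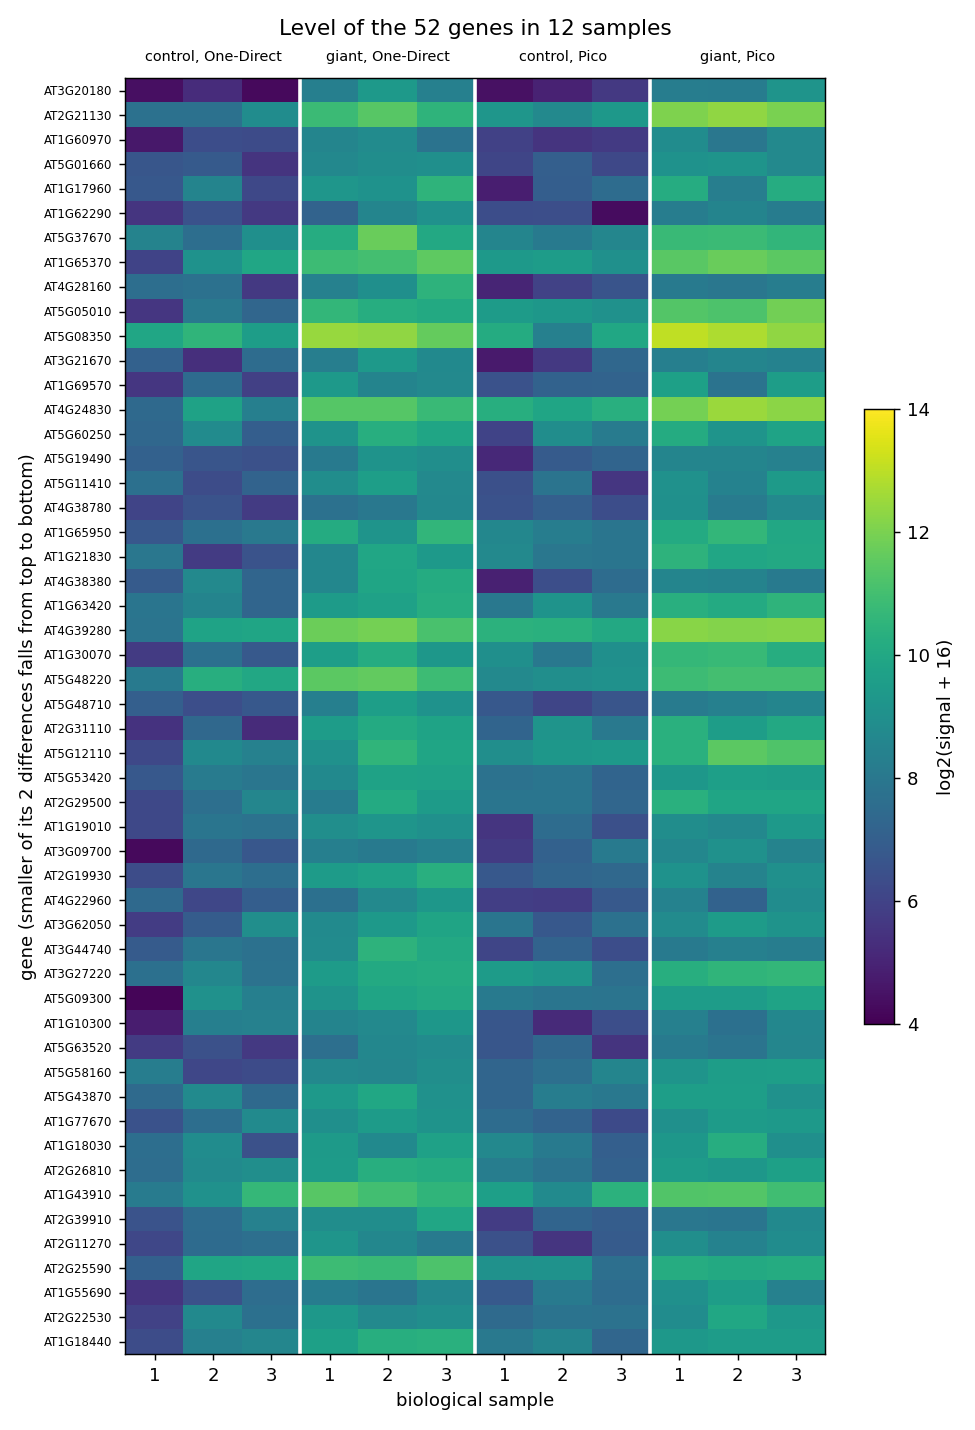
Log2(signal + 16) of the 52 genes (rows, ordered by the smaller of their 2 differences, largest at the top) in the 12 biological samples (columns, by group). Giant cell columns are brighter than control columns of the same kit in nearly every row, and the first One-Direct control column is the darkest in 31 of the 52 rows among its group.

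All giant cell samples lay above all control samples in 46 of the 52 genes with One-Direct and in 52 with Pico. Among all 22746 probe sets these shares were 15.7% with One-Direct, 18.3% with Pico and 5.5% with both kits, against 46 of the 52 genes with both; since the rule used this contrast, nothing is read from the counts. The 6 genes that overlapped with One-Direct were AT1G18030, AT1G43910, AT2G22530, AT2G29500, AT3G62050 and AT4G38380, named here after their values were seen. In AT2G29500 the One-Direct samples read 6.17, 7.66 and 8.60 in control and 8.19, 10.12 and 9.48 in giant cells, while the Pico samples read 7.90, 7.89 and 7.30 in control and 10.33, 9.87 and 9.87 in giant cells. One-Direct control sample 3 exceeded its giant cell sample 1, and the lowest giant cell value minus the highest control value was -0.41, the deepest overlap of the 6. AT1G43910 read 8.18, 9.05 and 10.68 in One-Direct controls, 11.40, 10.97 and 10.55 in One-Direct giant cells, 9.66, 8.78 and 10.41 in Pico controls and 11.29, 11.31 and 10.92 in Pico giant cells. AT4G38380 read 6.88, 8.72 and 7.24 in One-Direct controls, 8.64, 9.88 and 10.14 in One-Direct giant cells, 4.93, 6.42 and 7.54 in Pico controls and 8.55, 8.47 and 8.08 in Pico giant cells. In AT1G43910 it was again control sample 3, and in AT4G38380 control sample 2, that exceeded the lowest giant cell sample. In AT1G18030, AT2G22530 and AT3G62050 that value was between -0.19 and -0.02.

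The 23 genes not described singly fell between these extremes. In 7 of them, AT1G69570, AT5G60250, AT5G19490, AT5G11410, AT4G38780, AT1G65950 and AT1G63420, the difference was 1.94 to 2.54 with One-Direct and 1.92 to 2.36 with Pico. The other 16 were AT5G48710, AT5G53420, AT1G19010, AT3G09700, AT2G19930, AT4G22960, AT3G27220, AT1G10300, AT5G63520, AT5G58160, AT5G43870, AT1G77670, AT2G26810, AT2G39910, AT2G11270 and AT2G25590, at 1.53 to 2.54 with One-Direct and 1.53 to 2.49 with Pico. Over the 23 genes mean levels ran from 5.97 to 8.96 in One-Direct controls, 6.08 to 8.79 in Pico controls, 8.13 to 10.95 in One-Direct giant cells and 8.14 to 10.48 in Pico giant cells. The genes that overlapped with One-Direct had been set apart above and none overlapped with Pico. The 23 therefore could not overlap, and nothing is read from this. Their gap between the lowest giant cell and the highest control sample was 0.14 to 1.54 with One-Direct and 0.29 to 1.54 with Pico.

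The samples did not contribute alike. The genes' median level was 6.73, 7.73 and 7.61 in the 3 One-Direct control samples and 7.26, 7.84 and 7.53 in the Pico control samples. In giant cells it was 9.10, 9.66 and 9.76 with One-Direct and 9.29, 9.51 and 9.49 with Pico. Control sample 1 of One-Direct was the lowest of its group in 31 of the 52 genes, and giant cell sample 1 of One-Direct in 29. Against the median of all probe sets on the same samples, the genes stood at -0.79, -0.08 and -0.27 in One-Direct controls, -0.36, 0.17 and -0.14 in Pico controls, 1.1, 1.33 and 1.40 in One-Direct giant cells, and 1.74, 1.93 and 1.88 in Pico giant cells. Without One-Direct control sample 1 the rule kept 34 of the 52 genes and took 47 probe sets in all, and the genes' median difference relative to all probe sets with One-Direct was 1.58 in place of 1.70. All 52 differences stayed above 0 with both kits when that sample was left out.

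**Figure D4:**
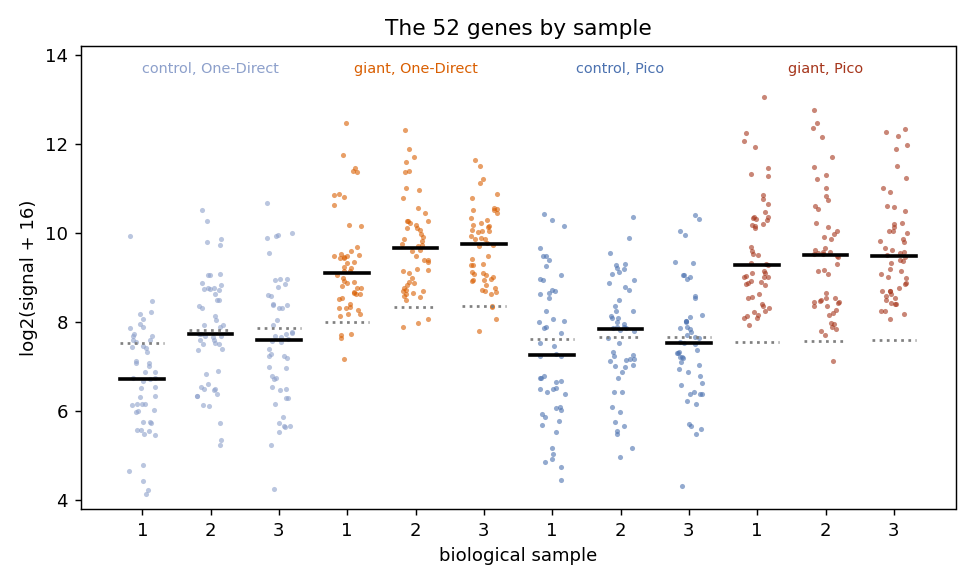
Log2(signal + 16) of the 52 genes in each of the 12 biological samples (points), with their median (black bar) and the median of all probe sets of that sample (dotted line). Control medians sit between 6.73 and 7.84 and giant cell medians between 9.10 and 9.76, and the dotted line is higher in One-Direct giant cells than in the other groups.

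Spread between samples was largest in One-Direct control cells. The median SD of the 52 genes was 0.98 there, 0.46 in One-Direct giant cells, 0.60 in Pico control cells and 0.28 in Pico giant cells (n = 3 each), where kept probe sets as a whole had 0.76, 0.46, 0.37 and 0.31. An SD over 1 was found in 25, 1, 8 and 2 genes in the same order. The SD was larger with One-Direct than with Pico in 37 of 52 genes in control cells and in 38 of 52 in giant cells. Shares of the kept probe sets were not computed for these counts of genes by SD, so nothing is read from them. AT5G09300 had the largest SD, 2.66, from One-Direct control samples at 4.13, 9.06 and 8.32, and its Pico control samples read 8.08, 7.87 and 7.84. Its giant cell samples read 9.15, 9.83 and 10.02 with One-Direct and 9.54, 9.54 and 9.79 with Pico, so the One-Direct groups came within 0.09 of each other. Technical arrays of 1 sample had a median SD over the genes of 0.65 in One-Direct control sample 2, 0.48 in One-Direct giant cell sample 1, 0.44 in Pico control sample 2 and 0.23 in Pico giant cell sample 1.

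The arrays' GAPDH control probe sets had a log2 ratio of 3'-end to 5'-end signal of 3.36 ± 0.92 (SD, n = 3) in One-Direct control cells, 2.24 ± 0.18 in One-Direct giant cells, 2.33 ± 0.20 in Pico control cells and 1.20 ± 0.16 in Pico giant cells. This measure of 3' bias was thus higher in control than in giant cells with both kits, and its part in the differences of the 52 genes was not tested. Within-group correlations over all probe sets ran from 0.690 to 0.851 in One-Direct control cells and from 0.920 to 0.968 with Pico.

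In 4 genes the difference between giant and control cells was over 1 log2 unit apart between the kits, and they too were named after their values were seen. AT2G31110, the TRICHOME BIREFRINGENCE-LIKE 40 gene, read 5.47, 7.37 and 5.25 in One-Direct controls and 9.53, 10.11 and 9.78 in One-Direct giant cells, and 7.23, 9.19 and 8.03 in Pico controls and 10.36, 9.57 and 10.04 in Pico giant cells. Giant cell levels were alike with the kits and the One-Direct controls were about 2 log2 units lower, so the difference was 3.78 with One-Direct and 1.84 with Pico. AT1G30070 read 5.72, 7.68 and 6.78 in One-Direct controls, 9.60, 10.18 and 9.28 in One-Direct giant cells, 8.97, 7.99 and 8.98 in Pico controls and 10.65, 10.75 and 10.22 in Pico giant cells. Neither kit's groups overlapped, with differences of 2.96 and 1.89. The other 2 were AT5G05010, also larger with One-Direct, and AT5G08350, larger with Pico. These kit gaps share the contrast of the rule and were not tested.

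Only AT1G21830 and AT2G31110 had a second probe set listed for the gene, and neither of these met the rule. The second probe set of AT1G21830 differed by 1.21 with One-Direct and 2.06 with Pico, against 2.58 and 1.96 for the one that did. For AT2G31110 the second probe set differed by 0.03 with One-Direct and 1.29 with Pico, against 3.78 and 1.84. With One-Direct its control samples read 8.22, 6.87 and 9.27 and its giant cell samples 7.67, 8.24 and 8.54, which overlap. With Pico they read 7.26, 6.97 and 6.34 in control cells and 8.89, 7.26 and 8.28 in giant cells. The second probe sets also did not share the kit calls given below. Over both cell types they differed between One-Direct and Pico by -0.16 for AT1G21830 (SE 0.35; limma adjusted p = 0.761) and by 0.63 for AT2G31110 (SE 0.41; limma adjusted p = 0.261). The 2 probe sets of AT2G31110 therefore gave different answers with One-Direct, and its difference is uncertain for that kit.

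The kit contrast, One-Direct minus Pico, was not the contrast that chose the genes. Still, the rule used the control and giant cell means of both kits, and its giant cell level of at least 8 bounds the giant cell side. A low control mean with either kit helped a gene to meet the rule, so kit differences in control cells are not free of the selection. The contrast was tested with limma over all 14652 probe sets that passed the filter on dim probe sets. All 52 genes passed it, and nothing is read from this, since the rule asked for a giant cell level of at least 8 with each kit. Over both cell types, 1 of the 52 was higher with One-Direct and 7 were lower at an adjusted p under 0.05, while 44 were not called, and 14 of the 52 had an unadjusted p under 0.05. Among all kept probe sets 18% were called higher and 16.3% lower. Their share at an unadjusted p under 0.05 was not computed and is no smaller than these 2 shares together. Nothing is therefore read from the 14. The genes' shares were 1.92% higher and 13.5% lower. Among the 4123 locus-only probe sets that reached the giant cell level of the rule, 5.97% were called higher and 18.1% lower. The split of 1 higher and 7 lower became 1 and 14 with median centring, and 9 and 6 both with limma's arrayWeights and when sample 1 of the 2 One-Direct groups was dropped, so nothing is read from the share in either direction. The median kit difference of the 52 genes was -0.06 log2 units, and that of the kept probe sets -0.09. The count moved with single samples, to 15 (8 higher and 7 lower) without One-Direct control sample 1 and to 5 without giant cell sample 3 of One-Direct or giant cell sample 3 of Pico.

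AT5G05010 was lower with One-Direct by the most, -1.74 log2 units (SE 0.37; limma adjusted p = 0.00256), as its sample values given above show. AT1G30070 differed by -1.38 (SE 0.35; limma adjusted p = 0.00754) and AT4G24830 by -1.36 (SE 0.35; limma adjusted p = 0.00874). AT5G12110 read 6.16, 8.75 and 8.39 in One-Direct controls, 8.95, 9.27 and 9.36 in Pico controls, 9.06, 10.56 and 9.87 in One-Direct giant cells and 10.35, 11.48 and 11.23 in Pico giant cells. Its One-Direct samples lay below the Pico samples in control cells without overlap and overlapped them in giant cells, and the difference was -1.31 (SE 0.44; limma adjusted p = 0.0331). AT2G21130 differed by -1.12 (limma adjusted p = 0.0081). For AT2G31110 at -1.15 (limma adjusted p = 0.0465) and AT1G21830 at -1.13 (limma adjusted p = 0.0327) the call rests on 1 of 2 probe sets, the other one being uncalled and, for AT2G31110, of opposite sign. AT3G44740 was the 1 gene called higher with One-Direct. It read 6.89, 7.93 and 7.73 in One-Direct controls, 6.07, 7.18 and 6.38 in Pico controls, 8.82, 10.45 and 10.04 in One-Direct giant cells and 8.13, 8.36 and 8.26 in Pico giant cells. Giant cell samples did not overlap between kits and control samples did, and the difference was 1.25 (SE 0.33; limma adjusted p = 0.0108). The calls of AT5G05010, AT1G30070, AT4G24830, AT2G21130 and AT3G44740 held in all 25 settings tried, those of AT1G21830 in 17, AT5G12110 in 16 and AT2G31110 in 10.

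**Figure D5:**
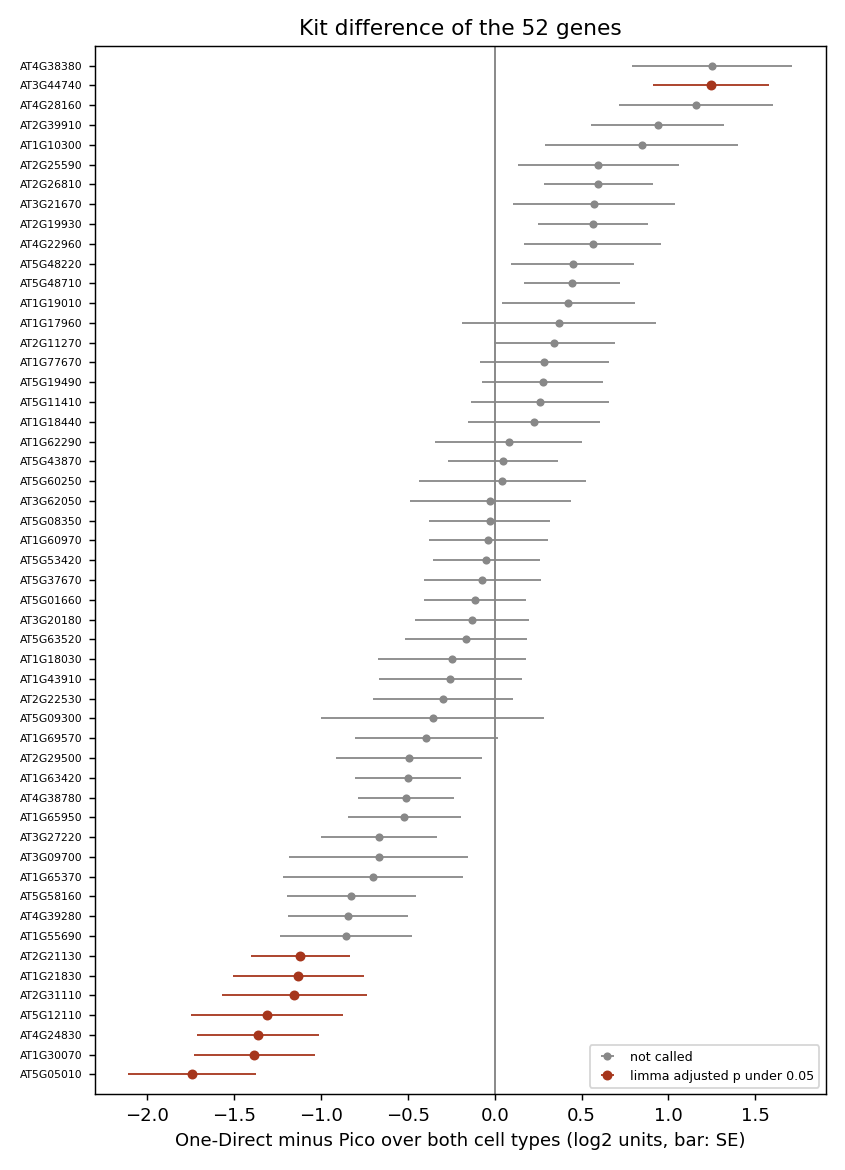
One-Direct minus Pico difference of each of the 52 genes over both cell types in log2 units, with its SE from limma as the bar; genes with an adjusted p under 0.05 are red. The 7 called genes at the lower end run from -1.12 to -1.74 and the 1 called gene at the upper end, AT3G44740, stands at 1.25, just below the uncalled AT4G38380, whose SE is larger.

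Within control cells alone, 0 of the 52 genes were called higher with One-Direct and 4 lower by limma, with 8 of the 52 at an unadjusted p under 0.05, where the kept probe sets had 11.2% higher and 10.1% lower and those at the giant cell level of the rule 4% and 11.1%. The 4 were AT5G05010 at -2.31 log2 units (limma adjusted p = 0.00714), AT2G31110 at -2.12 (limma adjusted p = 0.0211), AT1G30070 at -1.92 (limma adjusted p = 0.0146) and AT4G24830 at -1.67 (limma adjusted p = 0.0296). The second probe set of AT2G31110 differed by 1.26 in control cells (SE 0.58; limma adjusted p = 0.143), the opposite sign, so the gene's call is uncertain. The count was 7 without One-Direct control sample 1, and 2, 2 and 1 without Pico control samples 1, 2 and 3. The fit shared 1 estimate of the spread among all 4 groups, although One-Direct control cells spread the most. With only the control samples in the fit, 0 of the 52 were called. The limma adjusted p was then 0.0511 for AT5G05010, 0.0977 for AT2G31110, 0.0743 for AT1G30070 and 0.12 for AT4G24830, so these 4 calls depend on the shared estimate. Within giant cells 1 gene was called higher, AT3G44740 at 1.52 (limma adjusted p = 0.0346), and 1 lower, AT2G21130 at -1.24 (limma adjusted p = 0.0437), against 15.2% and 5.99% of the kept probe sets and 1.87% and 6.84% of those at the giant cell level of the rule, where 1 gene is 1.92% of the 52. This contrast is bounded by the rule, which asked for a giant cell level of at least 8 with both kits, and its count fell to 0 or 1 when any of 9 samples was left out (the 3 giant cell samples of either kit and the 3 Pico controls) and rose to 5 without One-Direct control sample 1. The split of 1 higher and 1 lower became 0 higher and 10 lower when each array was centred on its median, and 0 of the 52 were called by limma after quantile normalisation, where 4 had an unadjusted p under 0.05 with the signals as deposited. No gene was called in control and giant cells alike. The share of kept probe sets at an unadjusted p under 0.05 was not computed for either cell type, so nothing is read from those 2 counts of genes, 8 and 4.

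The thresholds passed through a continuous range of values. Just inside the difference of 1.5 were AT1G18440 (1.51 with Pico), AT2G22530 (1.52 with One-Direct) and AT1G55690 (1.52 with Pico). Just outside were AT5G08360 (1.49 with One-Direct and 2.49 with Pico), AT2G19310 (1.54 and 1.48) and AT2G05910 (1.64 and 1.48). Missing the giant cell level of 8 by a little were AT1G78460 at 7.94 (One-Direct), AT1G71420 at 7.88 (Pico) and AT4G31250 at 7.82 (Pico).

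By locus number, 16 of the 52 genes lie on chromosome 1, 9 on chromosome 2, 6 each on chromosomes 3 and 4, and 15 on chromosome 5. These are 30.8%, 17.3%, 11.5%, 11.5% and 28.8%, where the locus-only probe sets as a whole divide into 26%, 16.5%, 20.5%, 14.4% and 22.6%. No gene of the 52 is the next gene to another in RefSeq's order, and only AT1G17960 and AT1G18030 lie within 10 genes of each other, 7 apart. All 52 probe sets carry the plain suffix that the maker gives to probes held unique to a gene, as did all but 2.29% of the locus-only probe sets, and all but 0.606% of those at the giant cell level of the rule.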

How the data were processed

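Gene expression was measured on 20 Affymetrix arrays of laser-captured root cells. The deposited values are linear signal intensity, 1 value per probe set for 22810 probe sets; the tools named in the submitters' processing notes are MAS5 and Affymetrix Expression Console, with no settings given in the sources used here. Every array had a mean signal of about 500 after 2% was trimmed from either end, and median signals ran from 166.6 to 311.4, so levels are relative within an array. No array was identical to another, and the 64 array control probe sets were left out of gene counts.

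From these, log2(signal + 16) was computed and technical arrays of a sample were averaged. Members and lists were chosen with earlier results of these data known. Symbols came from the array's annotation and gene types and gene order from RefSeq (assembly TAIR10.1); 503 probe sets were listed with several genes and 8730 were not listed. For the kit contrast, limma 3.58.1 (lmFit and eBayes, R 4.3.3) fitted 4 group means to the 12 biological samples; tests were two-sided and p was adjusted by Benjamini-Hochberg across the 14652 probe sets above their array's median in at least 3 samples, at a threshold of 0.05. The fit was tried on simulated data in which all groups had the same spread, unlike the groups here. That trial therefore does not speak for groups of unequal spread. The labels do not tie samples to plants, so a p-value reflects only how far these samples spread, and precision is limited by their number.

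Named genes are the 12 with the largest value of the smaller of their 2 differences, the 6 brightest in giant cells, up to 5 called for the kit in each direction, and the 3 nearest to each side of the difference threshold. A planned grouping by product description could not be made, since the tables used here hold none; other genes were named after their values were seen, as said there or, for AT1G21830, AT5G09300 and the 3 that missed the giant cell level, here. Alternatives changed the pseudocount, scaling, technical averaging, filter, weights, block and the samples included.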

Additional observations from a re-analysis of the deposited data

How the results depend on the processing

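In all 21 other settings tried, the differences of all 52 genes between giant and control cells stayed above 0 with both kits. Nothing is read from this, since the rule chose the genes by these differences. The lowest difference of any gene in any setting was 0.49 with One-Direct and 1.05 with Pico. Of the 52 genes, 16 met the rule in every setting, and AT5G43870 met it in the fewest, 11. A pseudocount of 64 left 31 genes under the rule (29 of the 52) and took the median Pico difference to 1.69; median centring left 32 (28 of the 52) and quantile normalisation 37 (36 of the 52), and leaving out 1 sample gave 47 to 68. Median centring took the One-Direct median of all probe sets from 0.43 to -0.05, quantile normalisation to 0.05. The number of genes called for the kit over both cell types, 8, became 15 with median centring (1 higher and 14 lower), with limma's arrayWeights and when sample 1 of both One-Direct groups was dropped (9 higher and 6 lower each), and 5 to 15 when 1 sample was left out. In control cells, 4 became 10 without sample 1 of both One-Direct groups, 0 when the fit held the compared samples alone and 1 to 7 when 1 sample was left out. In giant cells, 2 became 10 with median centring, 0 with quantile normalisation, 1 with the first technical array only, 4 without sample 1 of both One-Direct groups, 7 with arrayWeights, 5 with the compared samples alone and 0 to 5 when 1 sample was left out. With the compared samples alone the SE of AT1G30070 went from 0.49 to 0.59 in control cells and to 0.33 in giant cells. The cause of the changes in these counts was not tested.

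Sample numbers recur in the groups, but same-numbered samples shared little of their deviations (correlations of -0.06 to 0.14 over all kept probe sets, 1 of 18 over 0.1, own number best in 8 of 18). Between the control groups of the kits the correlations were 0.14, 0.08 and 0.05, own number best in 3 of 3. This pair of groups is singled out by its values, and the labels give no pairing. Whether its samples were paired cannot be told. With a replicate block the kit counts were 10 over both cell types, 5 in control cells and 1 in giant cells. With 3 samples per group and a median SD of 0.98 in One-Direct control cells, values of that group are the least precise.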
